A study of Homo sapiens with 8 samples.

Results

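The loci of 6 genes around the Hippo pathway were examined in a map of H3K4me2, the dimethylation of lysine 4 of histone H3, in RD cells, an established human rhabdomyosarcoma line. The genes were the coactivators YAP1 and WWTR1 (which encodes TAZ), their DNA-binding partners TEAD1 and TEAD4, and the target genes CYR61 and CTGF. They were chosen by name, and the regions counted for each were those that overlapped its hg19 interval with 20 kb added on each side. The intervals were chr11:101981000-102105000 for YAP1, chr3:149235000-149455000 for WWTR1, chr11:12695000-12967000 for TEAD1, chr12:3068000-3150000 for TEAD4, chr1:86046000-86050000 for CYR61 and chr6:132269000-132273000 for CTGF. Merging the overlapping peaks of 4 libraries gave 73 regions at these loci, of 58952 regions in all.

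In one group the cells were reverse transfected with a Silencer Select siRNA against LSD1 (siLSD1), and in the other with a control siRNA (siCtrl). LSD1 is the demethylase that erases the mono- and dimethyl forms of this lysine. In both groups the medium was changed after 8 hours and the cells were harvested 96 hours after transfection. Each group had 2 ChIP libraries, which the submitters call biological replicates. The labels name 1 siRNA construct against LSD1, and all libraries came from 1 cell line. The peak lists hold no expression, so neither the loss of LSD1 nor the identity of the cells could be checked in them.

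YAP and TAZ are transcriptional coactivators that do not bind DNA themselves. When the Hippo kinases are inactive, they enter the nucleus and bind TEAD factors, which recognise the GGAATG motif in promoters and enhancers. The secreted matricellular proteins CYR61 and CTGF are their best-known targets. YAP1 is known to promote the growth of embryonal rhabdomyosarcoma. H3K4me2 is found at active and poised promoters and enhancers.

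The promoters of CTGF and YAP1 are shown because they hold the TEAD motif that links effectors and targets. Each is the 250 bases before a RefSeq start on GRCh38.p14, 5′ to 3′ on the strand of the gene, with GGAATG in capitals. CTGF lies on the minus strand at chr6:131951373-131951622, and YAP1 on the plus strand at chr11:102110197-102110446. These coordinates belong to GRCh38.p14 and were not set against the hg19 coordinates of the peaks.
CTGF: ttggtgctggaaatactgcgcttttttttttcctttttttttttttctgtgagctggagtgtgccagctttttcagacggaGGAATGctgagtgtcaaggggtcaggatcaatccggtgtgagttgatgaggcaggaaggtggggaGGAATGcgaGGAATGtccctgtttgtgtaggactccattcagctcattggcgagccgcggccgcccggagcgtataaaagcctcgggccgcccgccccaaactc
YAP1: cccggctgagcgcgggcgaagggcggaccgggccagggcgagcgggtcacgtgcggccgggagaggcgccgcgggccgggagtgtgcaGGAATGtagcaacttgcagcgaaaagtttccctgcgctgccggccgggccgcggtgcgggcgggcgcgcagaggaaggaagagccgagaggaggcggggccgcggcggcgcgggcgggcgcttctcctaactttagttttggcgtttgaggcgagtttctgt
The CTGF window held 3 copies of GGAATG, whose nearer ends lay 90, 99 and 164 bases before the start. The YAP1 window held 1 copy, 157 bases before the start. No copy of the reverse complement CATTCC and no AP-1 motif TGANTCA was in either window, nor was any of these motifs in the windows of the 2 listed WWTR1 starts. Of 35116 such windows in the RefSeq table, 11.9% held at least 1 TEAD motif on either strand, 0.940% at least 2 and 0.0826% at least 3, and 6.57% held the AP-1 motif. The table matched 3 of the 6 genes. A match is a description of the letters and not of a bound site.

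The library lists held 50587 and 49611 peaks after siLSD1, against 33878 and 44831 after siCtrl, with siCtrl replicate 1 the shortest. The siLSD1 peaks covered 96.9 and 104 Mb, against 70.1 and 94.1 Mb for siCtrl, so that the mean covered length over all chromosomes was 1.23 times as large after siLSD1, and 1.07 times without siCtrl replicate 1. Read depth is unknown, and its part in the results was not tested. An exact permutation test of 2 libraries against 2 cannot give a p below 0.333, so no comparison of a single locus could pass 0.05.

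Over the 6 loci, peaks covered 138 and 161 kb after siLSD1, against 80.6 and 128 kb after siCtrl, of 946 kb in all. Both siLSD1 libraries were above both siCtrl libraries. The means were 149 ± 16.3 kb after siLSD1 and 105 ± 33.8 kb after siCtrl (SD, n = 2 each), a ratio of 1.43. The difference of 44.7 kb was 20.8 kb without siCtrl replicate 1, and 19.2 kb with the same number of top-scoring peaks in each list. In that last setting siCtrl replicate 2 had more sequence under peaks over the 6 loci than siLSD1 replicate 1, so the groups overlapped. With all peaks counted, the siLSD1 and siCtrl values did not overlap at YAP1, TEAD1 and CYR61. The lengths covered by the whole lists did not overlap either. How often this happens at other intervals of the genome was not counted, so it does not set these loci apart.

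**Figure D1:**
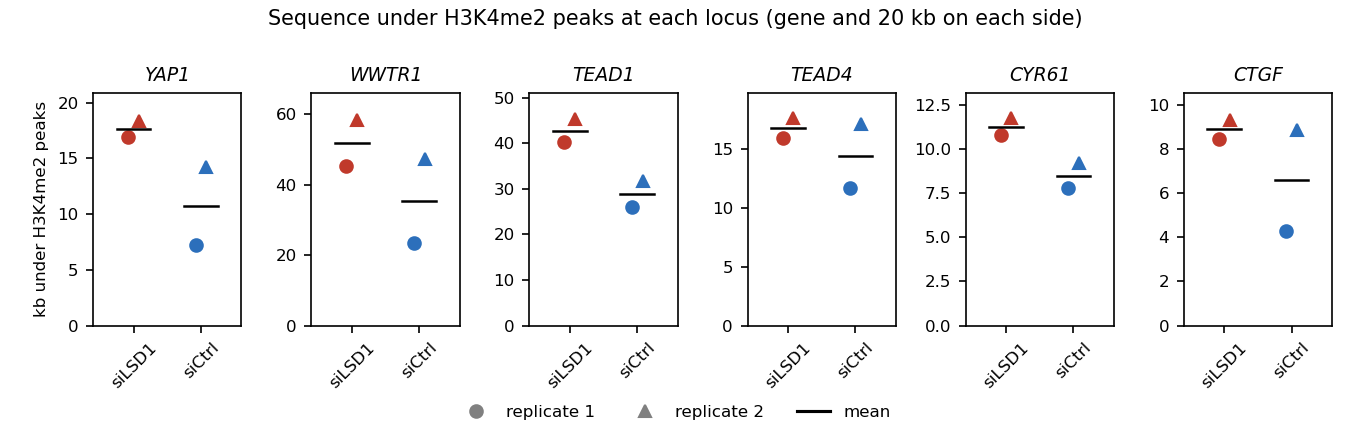
Kilobases under H3K4me2 peaks at each gene with 20 kb added on each side (y axis, a separate scale for each gene), in siLSD1 libraries (red, left) and siCtrl libraries (blue, right); points are libraries, circles replicate 1, triangles replicate 2 and lines the mean of 2. The groups do not overlap at YAP1, TEAD1 and CYR61, and siCtrl replicate 1 is the lowest library at all 6 loci.

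YAP1, the coactivator restrained by the Hippo kinases, had 17.0 and 18.4 kb under peaks after siLSD1, against 7.23 and 14.3 kb after siCtrl. The siLSD1 libraries lay close together and above both siCtrl libraries, which differed from each other by about as much as the groups did. The mean was 17.7 ± 1.02 kb after siLSD1 and 10.8 ± 4.98 kb after siCtrl (SD, n = 2 each), a difference of 6.93 kb and a ratio of 1.64 (two-sided exact permutation p = 0.333). With equal numbers of top-scoring peaks in each list, the locus had 9.53 and 10.99 kb after siLSD1, against 7.23 and 12.0 kb after siCtrl, so the groups overlapped and the difference was 0.648 kb. Without siCtrl replicate 1 the difference was 3.41 kb.

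The region over the YAP1 start, chr11:101979534-101987526, had 5.92 and 7.04 kb under peaks after siLSD1, against 4.52 and 5.91 kb after siCtrl. The groups did not overlap, but by 9 bp only. Next to it in the gene, chr11:101987723-101990261 had 1.93 and 2.34 kb after siLSD1, against 0 and 0.981 kb after siCtrl, with 953 bp between the groups. The region after that, chr11:101990331-101992174, had 1.79 and 1.76 kb after siLSD1, against 0.947 and 1.51 kb after siCtrl. Along the first 11 kb of YAP1 the siLSD1 libraries therefore had more sequence under peaks in each of 3 successive regions. Further in, chr11:102008564-102010920 had 2.36 and 2.06 kb after siLSD1, against 1.77 and 2.04 kb after siCtrl, a gap of 22 bp. One region, chr11:102048424-102049510, was gained, meaning that it had a peak in each siLSD1 library but in no siCtrl library. It lay 67.4 kb into the gene and had 0.974 and 1.09 kb after siLSD1.

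The authors also deposited a pooled list for each siRNA, and at the YAP1 start these differed from the library lists. The pooled siLSD1 list had no peak between positions 101919387 and 102008564 of chromosome 11, a gap of 89.2 kb that takes in the 5′ end of the gene. In the part of this gap inside the widened interval, the pooled siCtrl list had 4 peaks, of which chr11:101979475-101985314 had a score of 1230. The score is the authors' own value for each peak. Both siLSD1 library lists marked the same stretch, with best scores of 170 and 825 in the start region, against 149 and 891 in the siCtrl libraries. Read from the pooled lists, YAP1 had 11.9 kb under peaks after siLSD1 and 15.0 kb after siCtrl, the reverse of the library lists. Such gaps were uncommon. Of the 26653 regions with a peak in all 4 libraries, 45 (0.169%) had no peak in the pooled siLSD1 list and 32 (0.120%) none in the pooled siCtrl list. At the 6 loci there were 2 of the first kind, both at YAP1, and 0 of the second. The reason for the gap was not tested.

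**Figure D2:**
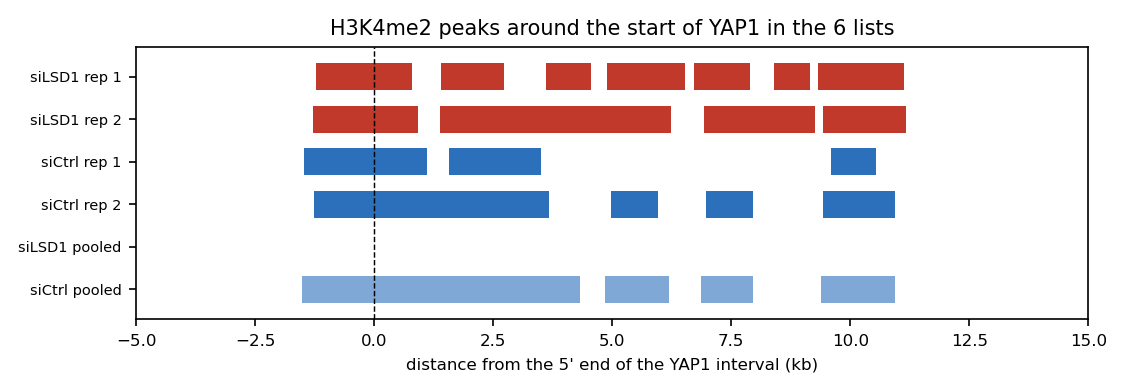
H3K4me2 peaks around the start of YAP1 in 4 library lists and 2 pooled lists (rows), by distance in kb from the 5′ end of the YAP1 interval (x axis, dashed line at 0). Both siLSD1 libraries have peaks over the start and along the first 11 kb, whereas the row of the pooled siLSD1 list is empty.

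WWTR1, whose product TAZ is the paralog of YAP, had the most sequence under peaks of the 6 loci in 3 of the 4 libraries. It had 45.4 and 58.2 kb after siLSD1, against 23.5 and 47.2 kb after siCtrl, and the groups overlapped. The mean was 51.8 ± 9.09 kb after siLSD1 and 35.4 ± 16.8 kb after siCtrl (SD, n = 2 each), a ratio of 1.46 (two-sided exact permutation p = 0.667). The difference of 16.4 kb was 4.56 kb without siCtrl replicate 1 and 5.44 kb with equal numbers of peaks.

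Most of the mark at WWTR1 lay inside the interval, away from its 5′ end. The region nearest the 5′ end of the interval, chr3:149453715-149454822, was narrow, with 0.855 and 1.07 kb after siLSD1, against 0 and 0.950 kb after siCtrl. The broadest region of all 6 loci, chr3:149364897-149378421, began 76.6 kb from the 5′ end of the interval. It was at the 99.6th percentile of breadth among all regions with a peak in all 4 libraries. It had 11.8 and 12.8 kb after siLSD1, against 7.15 and 10.2 kb after siCtrl, and the groups stood 1.53 kb apart. RefSeq lists 2 starts for WWTR1 on the other build, and which regions lie over them was not determined on hg19. The broadest region may therefore lie over a start, and the narrow one need not. Of the other 5 regions between 114 and 163 kb with a peak in all 4 libraries, 4 were broader in each siLSD1 library than in either siCtrl library. The exception, chr3:149319657-149324438, had 3.93 and 3.30 kb after siLSD1, against 1.73 and 4.76 kb after siCtrl. The 4 regions were chr3:149291620-149296418, chr3:149296521-149301438, chr3:149304120-149309154 and chr3:149336118-149340786, and their siLSD1 means were 1.31 to 1.46 times their siCtrl means. A single region was gained, chr3:149395671-149397109, with 1.02 and 1.44 kb after siLSD1.

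Of the 27 regions at WWTR1, 10 were found in 1 library only, and 8 of these in siLSD1 replicate 2. Another 5 lacked a peak in siCtrl replicate 1 alone. The upstream region chr3:149468687-149471448 had 1.995 and 2.76 kb after siLSD1, against 2.20 and 2.54 kb after siCtrl. It lay 13.7 kb before the interval, and COMMD2 and TM4SF4 are the RefSeq protein-coding neighbours of WWTR1 within 20 kb on the other build.

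TEAD1, which encodes a TEAD factor with a DNA-binding domain for the GGAATG motif, had 40.2 and 45.4 kb under peaks after siLSD1, against 26.1 and 31.7 kb after siCtrl. The groups did not overlap. The mean was 42.8 ± 3.68 kb after siLSD1 and 28.9 ± 4.004 kb after siCtrl (SD, n = 2 each), a difference of 13.9 kb and a ratio of 1.48 (two-sided exact permutation p = 0.333). TEAD1 was the 1 locus of the 6 at which the groups stayed apart under each of 8 alternatives. The differences were between 8.24 and 16.7 kb where covered length was counted in kb. The alternatives that left out 1 library could not make separate groups overlap, here or at YAP1 and CYR61, so they lend no support. With equal numbers of peaks TEAD1 had 31.0 and 37.4 kb after siLSD1, against 26.1 and 25.8 kb after siCtrl. Set against the total length each list covered, it had 414 and 434 bp per Mb after siLSD1, against 371 and 337 bp per Mb after siCtrl.

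The region over the TEAD1 start did not share in this. At chr11:12694502-12702945 the siLSD1 libraries had 7.29 and 8.42 kb, against 6.55 and 8.14 kb in siCtrl libraries, and the values interleaved. It was at the 98.5th percentile of breadth. The broader regions lay inside the gene. The nearest, chr11:12712461-12719077, had 6.04 and 6.62 kb after siLSD1, against 5.53 and 4.61 kb after siCtrl. At chr11:12744365-12747185, 49.4 kb into the gene, the siLSD1 libraries had 2.82 and 2.73 kb, against 1.27 and 1.83 kb in siCtrl libraries. The most separate for its spread was chr11:12861842-12865308, with 3.31 and 3.26 kb after siLSD1, against 2.05 and 2.09 kb after siCtrl, so that the replicates of each group lay closer together than the groups. The other 3 broader regions were chr11:12820607-12823013, chr11:12848360-12851267 and chr11:12865749-12868763, whose siLSD1 means were 1.195 to 1.67 times their siCtrl means.

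At TEAD1, 2 regions were gained. The region chr11:12704725-12706855, 9.73 kb into the gene, had 1.61 and 1.99 kb after siLSD1, and chr11:12832646-12834028 had 0.989 and 1.38 kb. Neither siCtrl library had a peak in either. Beyond 190 kb into the gene no library had a peak, so the last 81.7 kb of the interval was unmarked in both groups.

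TEAD4, a TEAD family member known for a role in muscle differentiation in mouse cells, had 16.0 and 17.7 kb under peaks after siLSD1, against 11.7 and 17.1 kb after siCtrl. The groups overlapped. The mean was 16.8 ± 1.21 kb after siLSD1 and 14.4 ± 3.83 kb after siCtrl (SD, n = 2 each), a ratio of 1.17 (two-sided exact permutation p = 0.667). Without siCtrl replicate 1 the difference of 2.42 kb was -0.29 kb, and per Mb covered it was -7.29 bp, so its direction depended on 1 library and on the scale.

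The TEAD4 start region, chr12:3066544-3074623, had 7.75 and 7.76 kb after siLSD1, against 7.15 and 7.74 kb after siCtrl. The gap between the groups was 8 bp. The other 2 regions marked in all 4 libraries had groups that overlapped: chr12:3107103-3109236 had 1.75 and 1.80 kb after siLSD1, against 1.94 and 1.77 kb after siCtrl, and chr12:3140800-3144148 had 2.80 and 2.61 kb, against 2.63 and 3.19 kb. No region was gained at TEAD4. The RefSeq neighbour of TEAD4 within 20 kb on the other build is TULP3, and whether any of these regions belongs to it was not determined.

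**Figure D3:**
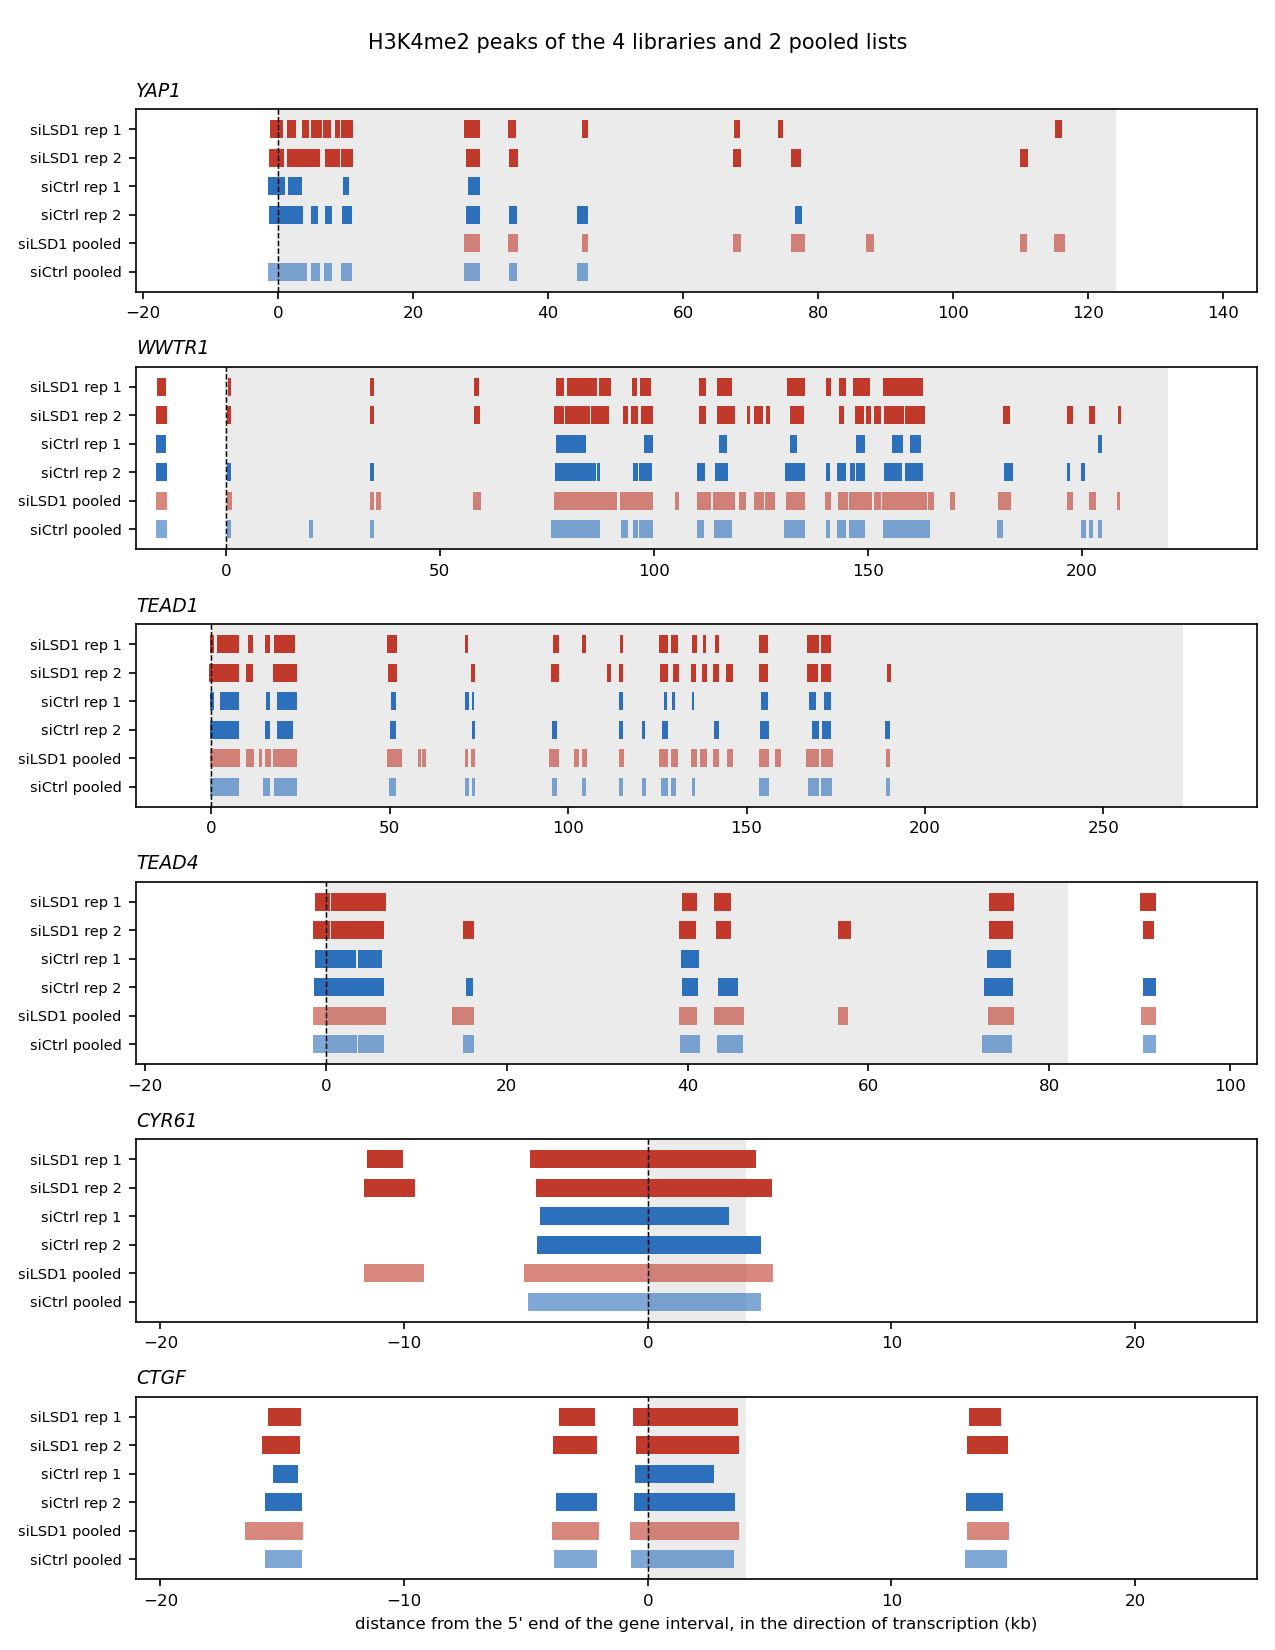
H3K4me2 peaks at the 6 loci in 4 library lists and 2 pooled lists (rows), by distance in kb from the 5′ end of the gene interval in the direction of transcription (x axis, dashed line at 0); grey marks the interval and red and blue mark siLSD1 and siCtrl. Peaks at WWTR1 and TEAD1 run through the gene, with none in the last 81.7 kb of TEAD1, and CYR61 has an upstream peak in both siLSD1 libraries and in neither siCtrl library.

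CYR61, which encodes a secreted matricellular protein of the CCN family, had 10.8 and 11.8 kb under peaks after siLSD1, against 7.78 and 9.19 kb after siCtrl. The groups did not overlap. The mean was 11.3 ± 0.692 kb after siLSD1 and 8.48 ± 1.00 kb after siCtrl (SD, n = 2 each), a difference of 2.78 kb and a ratio of 1.33 (two-sided exact permutation p = 0.333). The locus held 2 regions. The first, chr1:86041167-86051108, spanned the interval and was at the 99.2nd percentile of breadth, with 9.26 and 9.69 kb after siLSD1, against 7.78 and 9.19 kb after siCtrl, a gap of 70 bp. The second, chr1:86034369-86036427, ended 9.57 kb before the start and was gained, with 1.51 and 2.06 kb after siLSD1. The gained region held the larger share of the difference at CYR61, 1.78 kb against 0.994 kb in the region over the gene. The scores of the gained region, 110 and 90.2, stood at the 32.6th and 22.5th percentile of the lists of siLSD1 replicates 1 and 2. Within the interval alone, without the added 20 kb, the difference was 0.330 kb and the groups overlapped. The RefSeq neighbour within 20 kb is DDAH1, and whether the 2 regions belong to CYR61 or to DDAH1 was not determined.

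CTGF, the other CCN family target and the gene with 3 TEAD motifs in its promoter window, had 8.47 and 9.32 kb under peaks after siLSD1, against 4.28 and 8.87 kb after siCtrl. The groups overlapped, and siCtrl replicate 1 stood apart from the other libraries. The mean was 8.89 ± 0.601 kb after siLSD1 and 6.58 ± 3.25 kb after siCtrl (SD, n = 2 each), a ratio of 1.35 (two-sided exact permutation p = 0.667). Without siCtrl replicate 1 the difference of 2.32 kb was 0.021 kb.

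All 4 regions at CTGF were found in both siLSD1 libraries and in siCtrl replicate 2, and siCtrl replicate 1 lacked 2 of them. The region over the start, chr6:132269262-132273620, had 4.33 and 4.24 kb after siLSD1, against 3.26 and 4.16 kb after siCtrl, a gap of 80 bp. The region just upstream, chr6:132275065-132276871, had 1.48 and 1.81 kb after siLSD1, against 0 and 1.68 kb after siCtrl. No region was gained or lost at CTGF, and none of its pooled peaks was specific to 1 pooled list.

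Counted over the 6 loci, 5 of 73 regions were gained, or 6.85%, against 6.97% of all regions, and 0 were lost, against 1.04%. The share gained was thus near that of the genome. The gained regions lay at TEAD1 (2), YAP1, WWTR1 and CYR61, and none lay over the 5′ end of an interval. With equal numbers of peaks in each list, 0 of 49 regions were gained at the loci, against 3.29% of all regions. A peak in 1 library only was found in 18 regions, or 24.7%, against 24.6% of all regions. A peak in every library but siCtrl replicate 1 was found in 13 regions, or 17.8%, against 11.5%.

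In 25 of the 73 regions all 4 libraries had a peak. Of these, 17 (68.0%) had more sequence under peaks in each siLSD1 library than in either siCtrl library, against 30.3% of such regions in the genome, and 0 had less, against 9.62%. The broader ones were 3 of 3 at YAP1, 5 of 8 at WWTR1, 6 of 8 at TEAD1, 1 of 3 at TEAD4, 1 of 1 at CYR61 and 1 of 2 at CTGF. The gap between the groups was under 100 bp in 6 of the 17 and between 145 and 1527 bp in the other 11. Among all broader regions of the genome the gap was under 100 bp in 33.1%. The median difference over the 25 regions was 0.576 kb, against 0.126 kb over all such regions. The 25 regions were also broader to begin with, with a median breadth of 2.81 kb against 2.37 kb, and the differences were not scaled to breadth.

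The lowest library in each of the 25 regions, and the comparison with siCtrl replicate 2 alone, were also described. In 20 of the 25 regions siCtrl replicate 1 was the lowest library, or 80%, against 56.6% in the genome. Set against siCtrl replicate 2 alone, both siLSD1 libraries were broader in 17 of the 25, or 68.0%, against 35.0% in the genome, and narrower in 3, or 12.0%, against 33.0%. The 17 regions already called broader exceed siCtrl replicate 2 by definition. The count could therefore not fall below 17 and is no separate check. The regions at these loci sit close together on 6 stretches of sequence and are not independent of one another.

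**Figure D4:**
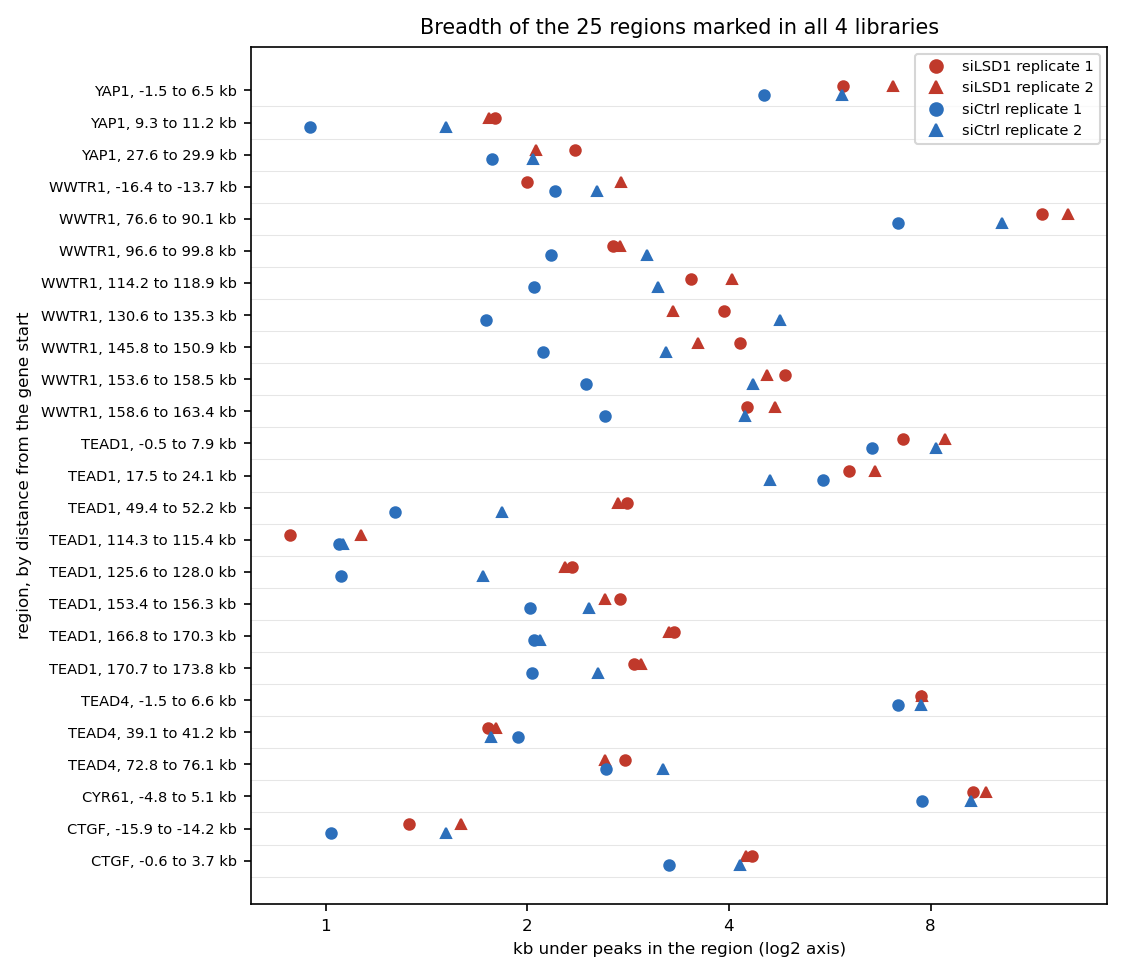
Kilobases under H3K4me2 peaks (x axis, log2 scale) in each of the 25 regions of the 6 loci with a peak in all 4 libraries (rows, by distance from the gene start); red is siLSD1, blue siCtrl, circles replicate 1 and triangles replicate 2. In 17 rows both red points lie right of both blue points, and in no row do both lie left of them.

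No single region passed the test across the genome. In limma on the kilobases covered per region, 55 of the 73 regions had peaks in at least 2 libraries and were tested among 44464, and 0% of all regions had an adjusted p under 0.05. On simulated shifts of 5 kb the same fit called 0 of 100 regions, so a shift of this size could not be detected. Before adjustment 9 of the 55 (16.4%) were broader at p under 0.05, against 13.4% of all regions tested, and 0 were narrower, against 2.24%. The lowest p belonged to the TEAD1 region chr11:12861842-12865308, with a difference of 1.21 ± 0.133 kb (SE, n = 2 each; limma adjusted p = 0.155). The broadest region, at WWTR1, had a difference of 3.61 ± 1.31 kb (SE; limma adjusted p = 0.365). Over the 55 regions the median difference was 0.658 kb, against 0.212 kb over all regions tested. Without siCtrl replicate 1, the median difference over 54 regions was 0.107 kb, against 0.0225 kb over all regions tested. With quantile normalization, the median over the 55 regions was 0.222 kb, against -0.09 kb.

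Between the pooled lists, 26 of 74 siLSD1 peaks at the loci (35.1%) had no counterpart in the pooled siCtrl list, against 27.0% of all siLSD1 peaks. Of the 56 pooled siCtrl peaks, 8 (14.3%) had none in the pooled siLSD1 list, against 8.86%. With lists cut to equal numbers of peaks the counts came close to each other, with 14 of 56 in the siLSD1 list and 12 of 56 in the siCtrl list, against 16% of all peaks in each. The siLSD1-specific peaks lay at WWTR1 (10), TEAD1 (9), YAP1 (5), TEAD4 (1) and CYR61 (1), and 10 of the 26 were in no library list. Another 3 overlapped a peak of a siCtrl library, so they were specific between the pooled lists only. The scores of the 26 ran from 50.3 to 204, with a median of 95.9, whereas the peaks shared with siCtrl had a median of 265. Of the 8 siCtrl-specific peaks, 4 were those over the YAP1 start, which both siLSD1 libraries also marked. The other 4 lay inside WWTR1 (3) and TEAD1 (1).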

How the data were processed

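H3K4me2 was mapped in 4 ChIP libraries, and 4 input libraries were not analysed here. Reads were aligned with Bowtie to hg19, per the submitters' processing notes. The authors deposited a peak list for each library and 1 pooled list for each siRNA. Each holds start and end positions and a score per peak, with peak names in the style of MACS. Versions, settings, the use of inputs and the way of pooling are not stated in the labels or headers. In every list, the deposited score begins at about 50 and served for describing, ranking and filtering the peaks of one list. The lists hold no read counts, so depth is unknown.

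Regions were built on chromosomes 1 to 22 and X from peaks sharing 1 bp or more. Covered length at each locus was tested by exact permutation, two-sided. Breadth per region was compared with limma 3.58.1 (trend and robust, statmod 1.5.0, R 4.3.3), with Benjamini-Hochberg adjustment over all regions with a peak in at least 2 libraries. On simulated data limma made 0 calls among 100 regions moved by 5 kb and 0 among 100 moved by 2 kb, of 44464 in the fit, with 0 false calls. Merging found 120 of 120 simulated gained regions and all 80 lost ones. The simulated regions stood far apart, so this was a check of the counting and not of merging among closely spaced peaks. The rest was done in Python 3.11.15 with scipy 1.17.1, pandas 2.3.3, numpy 2.4.6 and, for figures, matplotlib 3.10.9.

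All 6 genes are named, with the region at the 5′ end of each interval, the broadest region, and the gained, lost, broader and narrower ones. The genes and lists were chosen with earlier results of these data known. Interval ends are rounded to 1 kb. The strands of YAP1, WWTR1 and CTGF came from the RefSeq promoter table, and those of TEAD1, TEAD4 and CYR61 from general knowledge. RefSeq lists CYR61 as CCN1 and CTGF as CCN2. No hg19 annotation was used, so other Hippo pathway genes were not analysed here. Alternatives were unwidened intervals, equal numbers of peaks, the upper 50% by score, another overlap or merging rule, other limma settings, a replicate block and leaving out each library. Covered length per Mb of each list was added after the data were seen.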

Additional observations from a re-analysis of the deposited data

How the results depend on the processing

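Of 127 alternative values in all, 21 were labelled as moved, all of them counts. Counts were judged by their size against the main count. The summed length over the 6 loci was labelled as moved only if it shifted by at least 26.6 kb, the pooled SD of the libraries. The 48 values at single loci were judged by direction only, so a large change in length there was not labelled. Of these, 2 changed direction, both at TEAD4. Its difference was -0.29 kb without siCtrl replicate 1 and -7.29 bp per Mb of sequence covered in each list. Leaving out 1 library at a time gave between -0.29 and 5.13 kb at TEAD4. The other 46 alternatives at single loci kept their direction but not always their size. The difference at YAP1 was 0.648 kb with equal numbers of peaks, and without siCtrl replicate 1 it was 0.021 kb at CTGF and 4.56 kb at WWTR1. Over all 6 loci the difference was 39.6 kb with unwidened intervals, 30.5 kb with the upper 50% by score and 19.2 kb with equal numbers of peaks. It was between 20.8 and 68.6 kb with 1 library left out. The replicate block gave the main value of 44.7 kb, as it must when each group has 1 library of each number.

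With equal numbers of peaks 0 regions were gained (3.29% in the genome), and with the upper 50% by score 3, or 11.1% (6.33%). With 1 library left out 7 to 18 were gained, or 9.72% to 25% (7.90% to 19.5%), and 1 to 2 lost (2.49% to 7.05%). With the upper 50%, 7 of 10 common regions were broader (28.7% in the genome), and with 1 library left out 1 to 7 were narrower, or 3.85% to 18.4% (14.1% to 30.7%). Without siCtrl replicate 1, 21 of 38 common regions were broader, or 55.3% (37.8%). Of the pooled peaks, 14 of 56 were in the siLSD1 list alone and 12 of 56 in the siCtrl list alone with equal numbers (16% of all peaks in each). With the upper 50% these were 10 of 28 (23.1% of all) and 2 of 21 (5.06%). In limma, 3 of 33 regions were broader at an unadjusted p under 0.05 with equal numbers (8.35% of all tested) and 13 of 55 with the replicate block (14.6%). With 1 library left out they were 2 to 30, from 2 of 47 without siLSD1 replicate 1 (3.98%) to 30 of 48 without siCtrl replicate 2 (31.9%). No region at the loci was called in any of these fits, in which a lone library was assumed to vary like the other group. Quantile normalization moved the median of all regions to -0.09 kb, against 0.21 kb without it. Replicate numbers are shared only as numbers. Deviations of same-numbered libraries correlated at r = 0.247 over 26653 common regions, which are not independent. The cause of these shifts was not tested.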
